A study of Mus musculus with 82 samples.

Results

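Cytosolic ribosomal protein genes were followed across 82 laser-captured pieces of the mouse suprachiasmatic nucleus (SCN), the seat of the central circadian clock in the hypothalamus. Members were the protein-coding genes whose symbol is Rpl (large subunit) or Rps (small subunit) followed by a number and at most 1 further letter. This rule found 76 of 27515 genes, 46 of the large and 30 of the small subunit. It used names and no measured value. It leaves out cytosolic ribosomal proteins with other names, such as Rplp0, Rpsa, Fau and Rack1, which are described further on with the translation factors.

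A cytosolic ribosome carries one copy of almost every ribosomal protein, so cells make the large-subunit and small-subunit proteins in matched amounts. The messages of vertebrate ribosomal proteins usually open with a C followed by an unbroken run of C and T, the 5′ terminal oligopyrimidine (TOP) motif. Through this motif the kinase mTORC1 and the RNA-binding protein Larp1 set how well they are translated. In the SCN, light and the clock act on mTOR signalling and on phosphorylation of Rps6.

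Start-site sequences are shown for members whose position slopes passed the test and for members that display the motif. RefSeq promoter sequences (GRCm38.p6) held 57 of the 76 members, with 69 annotated starts, and the other 19 were not matched. Each window is 30 bases on the gene's strand, 15 before the annotated start and 15 from it on, and capitals mark its longest run of C and T. The first 6 windows hold a C at the annotated start followed by 4 bases that are each C or T.
Rps6 (chr4:86857353-86857382, minus strand): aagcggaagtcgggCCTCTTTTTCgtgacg
Rps27 (chr3:90213634-90213663, minus strand): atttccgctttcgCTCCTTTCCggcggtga
Rps18 (chr17:33955651-33955680, minus strand): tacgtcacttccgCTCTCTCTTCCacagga
Rpl28 (chr7:4792950-4792979, plus strand): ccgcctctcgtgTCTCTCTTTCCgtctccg
Rpl15 (chr14:18270972-18271001, minus strand): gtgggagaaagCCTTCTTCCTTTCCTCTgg
Rpl35a (chr16:33056467-33056496, plus strand, the middle of its annotated starts): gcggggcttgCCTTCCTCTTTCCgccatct
Rps24 (chr14:24490663-24490692, plus strand): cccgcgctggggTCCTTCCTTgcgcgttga
Rpl37 (chr15:5116598-5116627, plus strand): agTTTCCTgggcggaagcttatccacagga
Rpl24 (chr16:55966260-55966289, plus strand): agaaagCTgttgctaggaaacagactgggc
Rpl11 (chr4:136053379-136053408, minus strand): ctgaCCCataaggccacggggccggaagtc
The strict form at the annotated start was present in 12 of 69 member starts (17.4%), against 2.47% of the 32782 starts of all other genes. It was read on the gene's strand only. A run of 8 or more C and T anywhere in the window was present in 26 member starts (37.7%), against 11.9% of other starts. The 2 patterns overlap. Of the 7 members whose straight-line slopes passed the test below, Rpl35a had the strict form, Rpl11, Rpl24 and Rpl37 had neither pattern, and the others are not shown. These are matches of letters around annotated starts, which may lie some bases from the starts used in this tissue.

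The hexagons came from C57BL/6 mice aged 8 weeks; the labels name no animal, sex, treatment or collection time. Brain sections were stained with cresyl violet, and hexagons with a largest radius of 40 µm were cut from them on a grid, not by a marker, for Smart-seq2 libraries, which copy whole messages. Each hexagon has a dorsal-ventral (301 to 917), a medial-lateral (1100 to 1517) and an anterior-posterior coordinate (47 to 431), with no unit and no statement of which end is which. The 9 anterior-posterior values define sections 1 to 9, numbered from the lowest, with 4, 6, 12, 14, 12, 14, 13, 6 and 1 hexagons, and the comparisons ask how members vary with position. Because some hexagons may come from 1 animal, the p-values below are too small; they reflect spread among hexagons, not among animals. Each hexagon holds many cells, so fewer cells of a type and less RNA per cell cannot be told apart. As a landmark, transcripts of Vip, a peptide of ventral SCN neurons, rose with the dorsal-ventral coordinate by 1.53 (SE 0.17) on the log2 scale per 100 units (edgeR adjusted p = 1.51e-09).

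Total counts ranged from 11905 to 2843366 per library (median 542268). In 5 libraries the total was below the median divided by 3. The shallowest, replicate 4 of section 4, stood apart: it held 371 member counts, detected 50 of the 76 members, and gave 8.02% of its counts to mitochondrial transcripts. Every other library detected at least 71 members. SCN marker genes were present in most hexagons, among them Rorb (median 1206 CPM, which is counts scaled to a library of 1000000) and Syt10 (median 617 CPM), each detected in 82 of 82. Of 5 markers of glutamatergic forebrain neurons, Slc17a7 and Neurod6 had 0 counts in all libraries and 1 passed the count filter. The summed level of these 5 had a median of 2.19 CPM (range 0 to 231) in the 27 hexagons of lowest dorsal-ventral coordinate and of 0 CPM (range 0 to 177) in the 27 of highest.

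Nearly all members were expressed in every hexagon. Counts were present for 50 members in all 82 libraries and for 21 more in every library except the shallowest. Levels between genes are compared as RPKM, counts per kilobase of the gene length in the authors' table and per 1000000 counts. The order of genes depends on that length, as described further on. The highest large-subunit levels by median over 82 hexagons were those of Rpl17 at 524 RPKM (range 306 to 773), Rpl8 at 359, Rpl41 at 357 and Rpl19 at 344. Rpl17 and Rpl19 lie at the exit of the peptide tunnel, and Rpl41 is among the shortest proteins of the cell. Among the highest small-subunit levels were those of the X-linked Rps4x at 354 RPKM (range 191 to 722) and Rps14 at 255. Rps6, the target of S6 kinase, had a median of 251 RPKM and was listed at 0 only in the shallowest library. Rps27a, which is made as a fusion to ubiquitin, had a median of 133 RPKM (range 65.0 to 1152, the highest in the shallowest library).

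**Figure D1:**
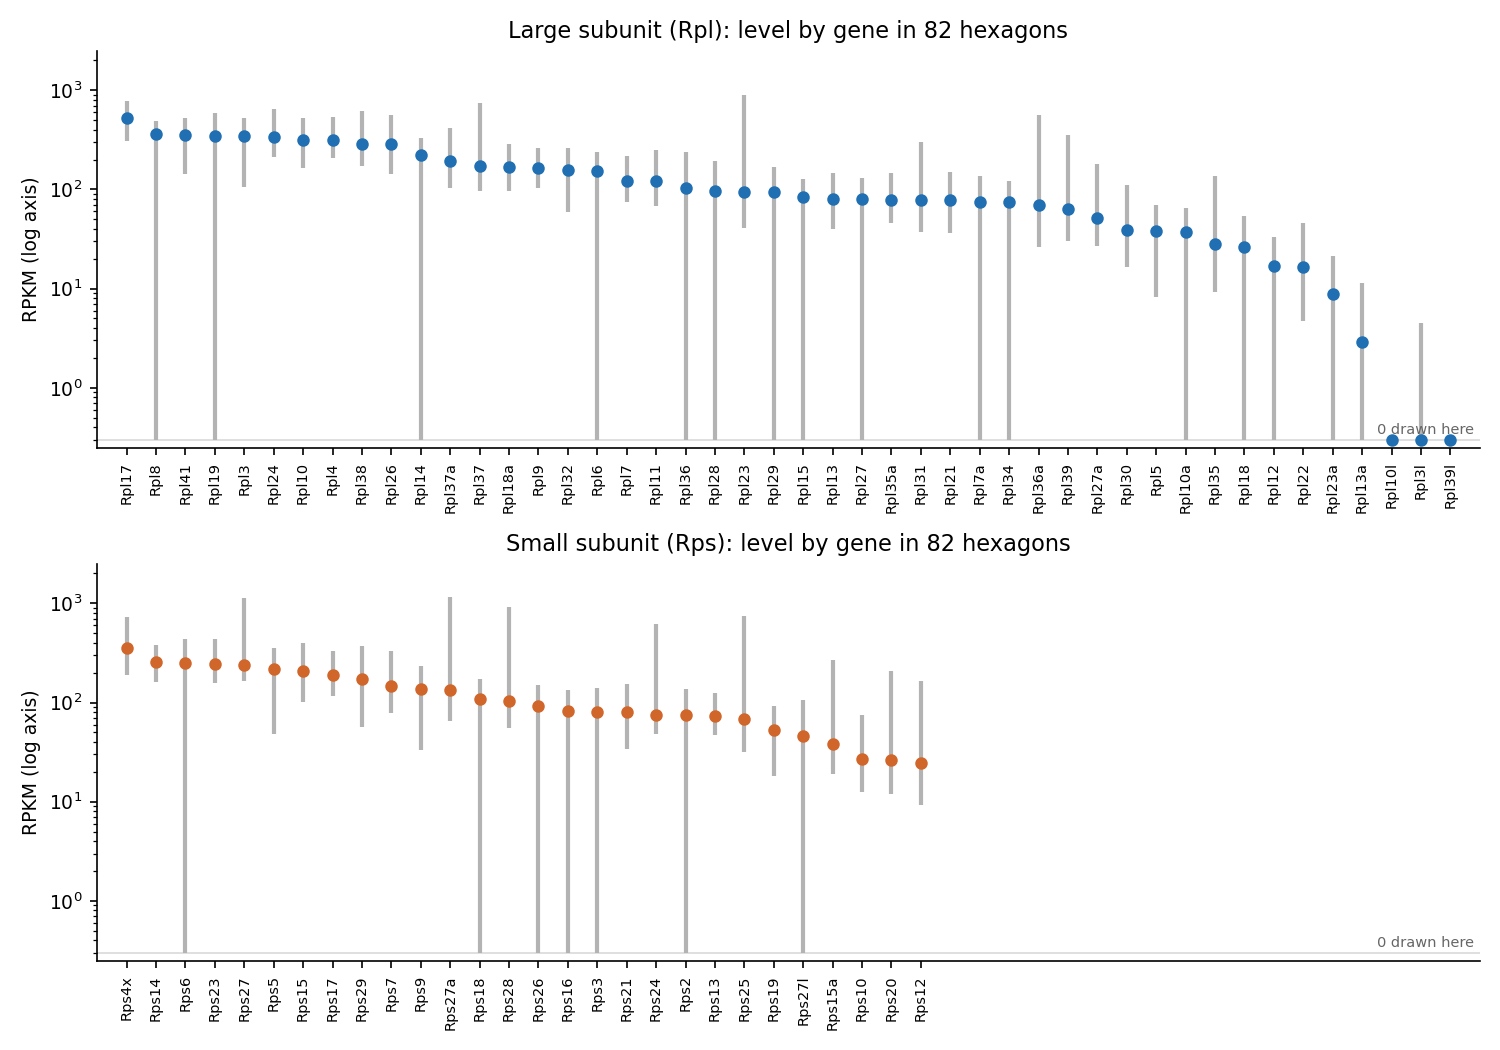
RPKM (log axis) of the large-subunit and small-subunit genes drawn; points are medians over 82 hexagons and grey lines run from the lowest to the highest hexagon, with 0 drawn at the foot of the axis. By RPKM, whose order depends on the gene length used, Rpl17 leads the large subunit at 524, and Rpl3l, Rpl10l and Rpl39l have a median of 0.

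At the low end, the tissue-restricted copies were all but absent. Rpl10l and Rpl39l, known from male germ cells, had 0 counts in 82 libraries, and Rpl3l, known from muscle, had 2 counts in 1 library. Their broadly used counterparts had medians of 314 RPKM for Rpl10, 63.8 for Rpl39 and 343 for Rpl3. Rps27l, the 4th member whose symbol ends in l, was expressed, with a median of 46.0 RPKM (range 0 to 107) against 238 for Rps27 (range 164 to 1129). The 0 of Rps27l and the 1129 of Rps27 both belong to the shallowest library. Among the copies that the naming rule keeps, only Rps27l was well detected together with its counterpart. The coding starts of Rps27 and Rps27l are therefore printed, with capitals at the bases that differ.
Rps27, first 60 coding bases: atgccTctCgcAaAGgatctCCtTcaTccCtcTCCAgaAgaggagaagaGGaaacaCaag
Rps27l, first 60 coding bases: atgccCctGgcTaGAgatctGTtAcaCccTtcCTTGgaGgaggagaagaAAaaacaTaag
The coding sequences of Rps27 and Rps27l, read from GENCODE transcripts on GRCm38, are both 255 bases long and identical at 194 positions (76.1%). They differ at 18 of the 60 bases shown.

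Some members expected in every ribosome were also low. Rpl13a had 411 counts in total and a median of 2.88 RPKM (range 0 to 11.5), and Rpl23a had 466 counts and a median of 8.72 RPKM (range 0 to 21.2). The next lowest were Rpl22, with a median of 16.6 RPKM, and in the small subunit Rps12 at 24.5, Rps20 at 26.1 and Rps10 at 27.0. Rpl22l1, which the naming rule leaves out, had a mean of 229 CPM, against 51.3 CPM for Rpl22. Rpl3, which lines the approach to the peptidyl transferase centre, had the most counts, 68039. Ribosomal protein genes have many processed pseudogenes, so a read can match more than 1 gene. Of the 50-base words in a member's annotated transcripts, a median of 37.1% also occur in transcripts of another annotated gene. This share was 85.7% for Rpl23a and 41.1% for Rpl13a. It was 81.7% for Rpl24 and 67.1% for Rpl3, which had high counts. Across 73 members the shared portion and total counts gave a Spearman rho of -0.052, over genes that share the same libraries. Genes may differ in true level, so this value cannot show the effect of shared sequence on single genes, which was not tested. How the authors placed reads with several matches is not given in the sources used here. Gene lengths in the authors' table were, by median, 2.43 times those of the members' annotated coding transcripts, which lowers RPKM unequally between genes. By counts per kilobase of median coding-transcript length, Rpl3 ranked 1 among the members. Rpl17, which ranked 1 by RPKM, was then 27, Rpl8 15, Rpl41 4 and Rpl19 18. An exon of 35 members overlaps another annotated gene, for 18 on the other strand, and reads there cannot be assigned with certainty. For that reason single members are read as uncertain where copies exist.

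Together the members made up 1.85% of a library's counts (median, range 1.40 to 3.12% over 82 hexagons). The large subunit took 1.12% (range 0.828 to 1.47%) and the small subunit 0.737% (range 0.542 to 1.82%). The log2 ratio of large-subunit to small-subunit counts had a median of 0.59 and an SD of 0.14 over 82 hexagons. The highest share and the lowest ratio, 3.12% and -0.49, both belong to the shallowest library, which had 154 large-subunit and 217 small-subunit counts. On the TMM-scaled level used for CPM and slopes, its rank was the opposite: its summed members came to 12248 CPM, the lowest of 82 hexagons (median 18737, highest 26270). Without the 5 low-depth libraries the ratio ran from 0.41 to 0.76 with an SD of 0.07. In those 77 hexagons the large-subunit and small-subunit shares had a Pearson correlation of 0.94, as a description of hexagons that share sections and library sets. With all 82 it was 0.70.

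The shallowest library differed by single genes more than by a whole subunit. Rps24 had 46 counts there, or 1519 CPM, against 303 to 765 CPM in the other 81 libraries. Rps25 had 24 counts, or 792 CPM, against 85.2 to 289, and Rps28 had 16 counts, or 528 CPM, against 79.7 to 233. Rps6 had 0 counts and Rpl3 had 4, or 132 CPM, against 547 to 1800 CPM elsewhere. The first 3 were thus higher, and Rps6 and Rpl3 lower, than in any other library.

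**Figure D2:**
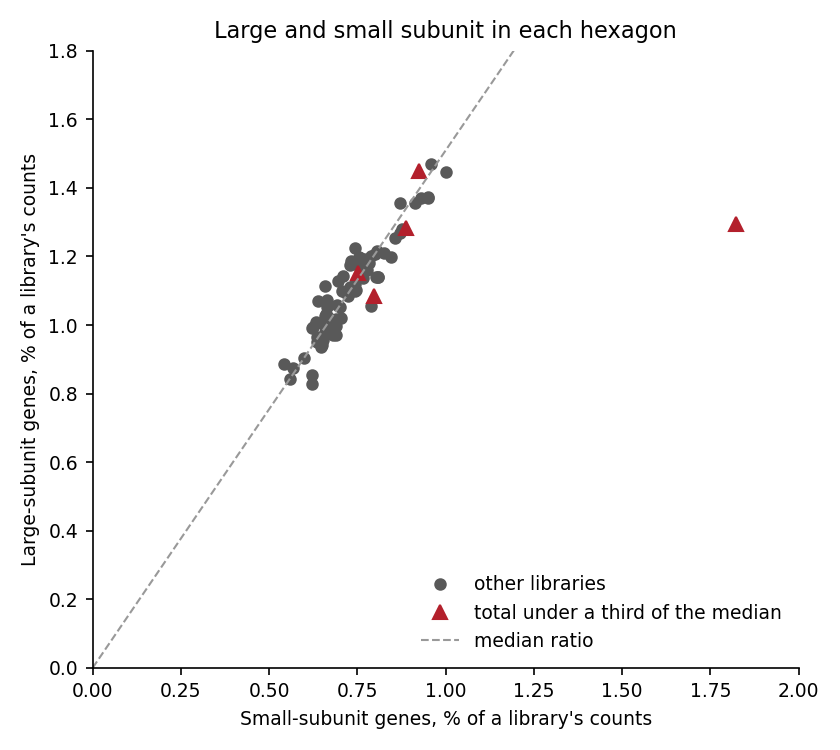
Large-subunit against small-subunit genes, each in percent of a library's counts, for 82 hexagons; triangles are the 5 libraries of low depth and the dashed line is the median ratio. The points follow that line except the shallowest library, whose log2 ratio is -0.49.

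Along the dorsal-ventral coordinate, ribosomal protein transcripts were lower where the coordinate is high, the end with more Vip. The summed share was 1.95% (median, range 1.62 to 3.12%) in the 27 hexagons of lowest coordinate, 1.85% (range 1.45 to 2.32%) in the middle 28 and 1.74% (range 1.40 to 2.30%) in the 27 of highest coordinate. These groups overlap widely. Means were 2.02% ± 0.32 (SD, n = 27) and 1.75% ± 0.22 (SD, n = 27) at the low and high ends. Without low-depth libraries they were 1.97% ± 0.22 (SD, n = 25) and 1.73% ± 0.23 (SD, n = 25). A slope here is the log2 change per 100 coordinate units, fitted with section and both coordinates in 1 model. Slopes were negative for 66 of the 73 members tested, 40 of 43 in the large and 26 of 30 in the small subunit. The median slope was -0.046, against 0.0027 over all 11469 genes tested. Subunit medians were -0.042 (large) and -0.047 (small). The background of genes called lower, with edgeR's adjusted p under 0.05, was 0.305% of all genes, with 0.506% called higher and 0.811% in either direction. Of the members, 4 of 73 were called, all lower and all of the large subunit. At an unadjusted p under 0.05 there were 32 members (43.8%), against 8.43% of all genes.

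All 4 genes that fell along this coordinate encode large-subunit proteins. Rpl3 ran from 132 to 1800 CPM (median 1241) in the 27 hexagons of lowest coordinate and from 703.3 to 1458 CPM (median 963) in the 27 of highest. Its slope was -0.090 (SE 0.021), with an edgeR adjusted p of 0.0101. Rpl24, which reaches across to the small subunit, ran from 264 to 603 CPM (median 387) at the low end and from 224 to 485 (median 321) at the high end. Its slope was -0.081 (SE 0.020, edgeR adjusted p = 0.0222). Both genes overlap between the ends, and both slopes were negative in 7 of 8 sections. Rpl37, a small zinc-binding protein, had medians of 309 CPM (range 195 to 495) and 242 CPM (range 168 to 444), and a slope of -0.094 (SE 0.024, edgeR adjusted p = 0.0266). Rpl35a, altered in some families with Diamond-Blackfan anaemia, had medians of 305 CPM (range 165 to 512) and 262 CPM (range 174 to 455), and a slope of -0.081 (SE 0.022, edgeR adjusted p = 0.0438). Rpl37 and Rpl35a had negative slopes in 8 of 8 sections.

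The steepest negative slopes in the small subunit did not pass the test, among them Rps28 at -0.10 (SE 0.03) and Rps24 at -0.081 (SE 0.023). In the large subunit Rpl36a (-0.097, SE 0.033) and Rpl34 (-0.095, SE 0.027) had steeper slopes than Rpl3 without passing. The 7 members with positive slopes were all uncalled. They include Rpl13a (0.16, SE 0.11), Rps10 (0.040, SE 0.041), Rpl18 (0.036, SE 0.039), Rpl29 (0.030, SE 0.036), Rps29 (0.027, SE 0.035) and Rps27l (0.017, SE 0.058). Rps6 was uncalled, at -0.032 (SE 0.025).

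**Figure D3:**
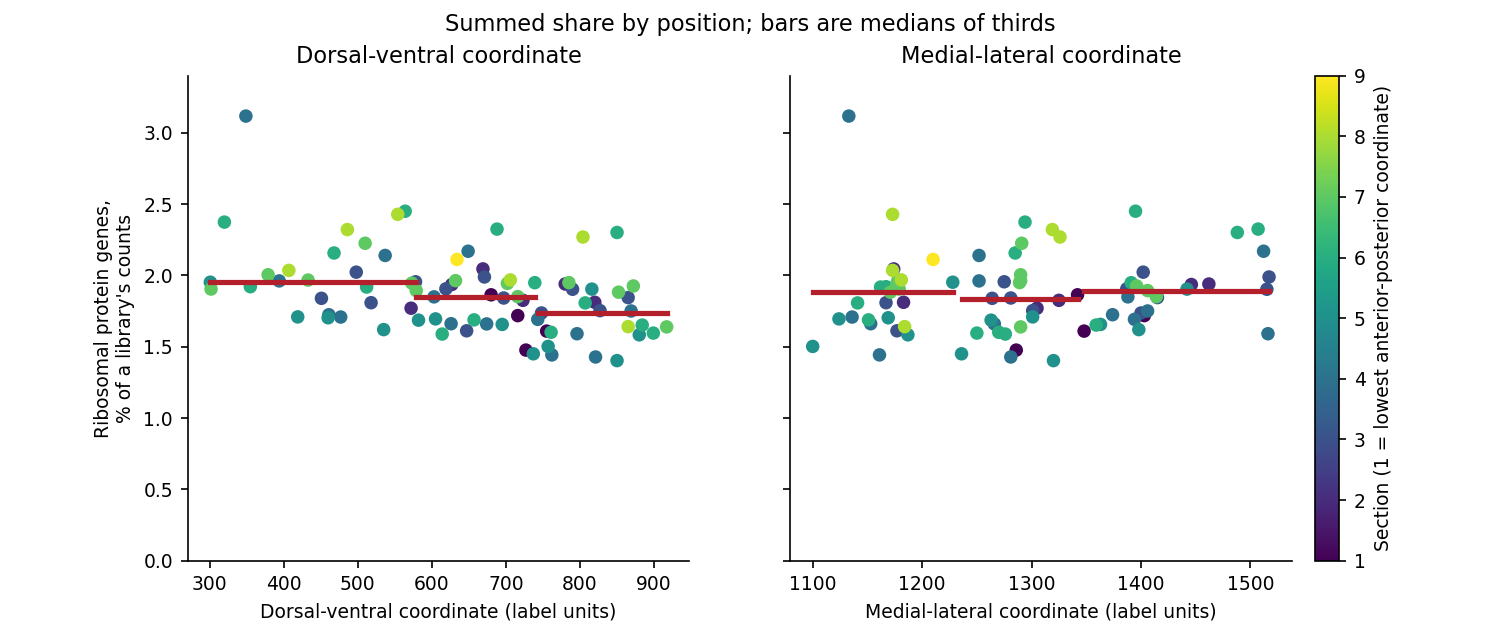
Summed share of counts (percent) of the 76 genes against the dorsal-ventral (left) and medial-lateral (right) coordinate in label units, for 82 hexagons coloured by section; red bars are medians of the 27, 28 and 27 hexagons of low, middle and high coordinate. The medians step down from 1.95 to 1.74% on the left and stay between 1.83 and 1.89% on the right.

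Along the medial-lateral coordinate the members' slopes ran the other way, but the hexagons sorted by this coordinate alone did not differ much. The summed share had a median of 1.88% (range 1.44 to 3.12%) in the 27 hexagons of lowest coordinate, 1.83% (range 1.40 to 2.37%) in the middle 28 and 1.89% (range 1.59 to 2.45%) in the 27 of highest. With section and the dorsal-ventral coordinate in the model, 65 of 73 members had positive slopes. The median slope was 0.068, against -0.0054 over all genes, with 0.068 for the large and 0.069 for the small subunit. The background of genes called higher was 0.837%, with 0.558% called lower and 1.4% in either direction. Of the members 5 of 73 were called, all higher, 3 of the large and 2 of the small subunit. At an unadjusted p under 0.05 there were 25 (34.2%), against 11.6% of all genes.

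Rpl11, which with Rpl5 and 5S rRNA can bind the p53 regulator Mdm2, rose most among the members. It ran from 183 to 502 CPM (median 320) in the 27 hexagons of lowest medial-lateral coordinate and from 258 to 597 CPM (median 348) in the 27 of highest. Its slope was 0.16 (SE 0.04, edgeR adjusted p = 0.0052). Rps14, lost with a part of a chromosome in one form of human myelodysplastic syndrome, had medians of 329 CPM (range 165 to 565) and 402 CPM (range 247 to 504), and a slope of 0.12 (SE 0.03, edgeR adjusted p = 0.0313). The ends overlap for both genes, and the slopes were positive in 7 of 8 sections. Rpl35a and Rpl24 passed the test on this coordinate too. Rpl35a rose by 0.13 (SE 0.03, edgeR adjusted p = 0.0255), with medians of 260 and 287 CPM at the ends. Rpl24 rose by 0.11 (SE 0.03, edgeR adjusted p = 0.0268), with medians of 328 and 369 CPM.

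Other steep slopes on this coordinate did not pass. Among them were those of Rps10 (0.14, SE 0.06), Rpl19 (0.14, SE 0.04), Rpl27 (0.13, SE 0.05) and Rps21 (0.12, SE 0.06). The lowest 3 values in each subunit, also uncalled, were those of Rpl29 (-0.11, SE 0.05), Rpl18 (-0.097, SE 0.059), Rpl7a (-0.020, SE 0.053), Rps12 (-0.016, SE 0.074), Rps29 (-0.013, SE 0.052) and Rps20 (-0.0047, SE 0.0520). Rpl29 and Rpl18 thus lay on the opposite side to most members on both coordinates.

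**Figure D4:**
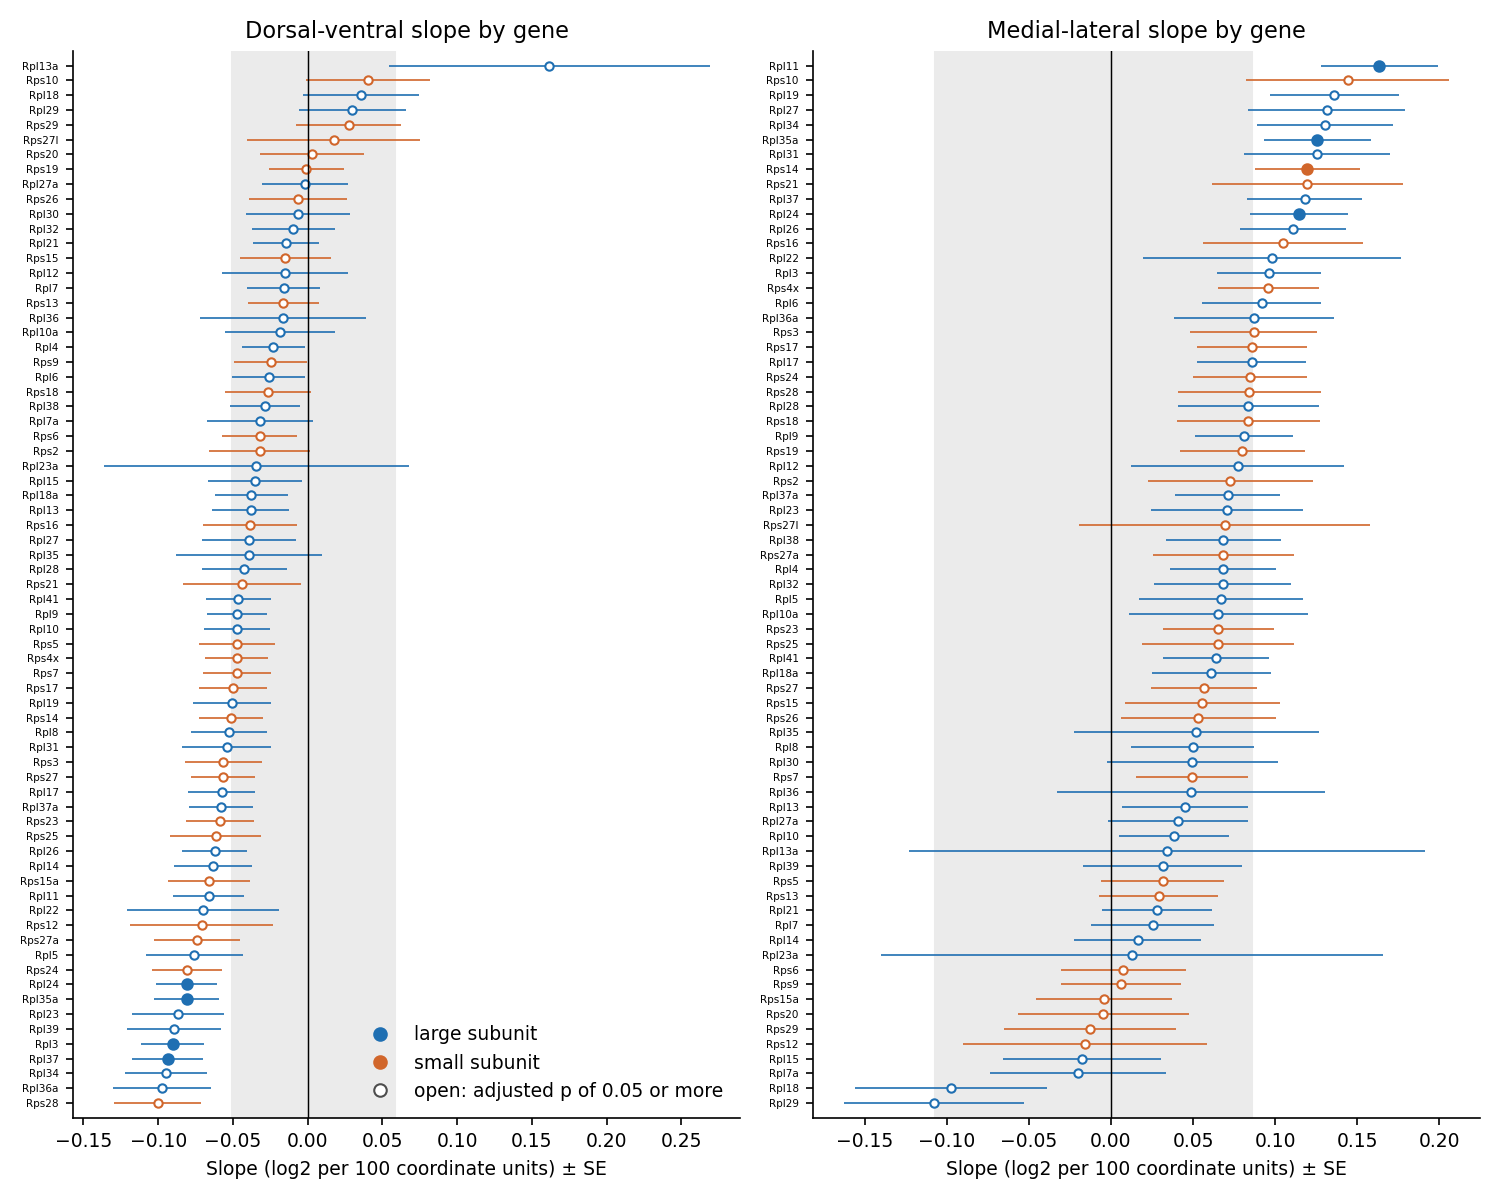
Slope (log2 change per 100 coordinate units, bars ± SE) of the tested members drawn, along the dorsal-ventral (left) and medial-lateral (right) coordinate, sorted; filled points passed the test and the grey band holds the middle of all 11469 genes, from the 25th to the 75th percentile. Over all 73 members tested, 66 slopes were below 0 on the left and 65 above 0 on the right.

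The calls on the 2 coordinates depend on fitting them together. Within sections the coordinates had a correlation of 0.27 over 81 hexagons. With 1 coordinate at a time beside section, 0 members were called along the dorsal-ventral coordinate (19 at an unadjusted p under 0.05) and 1, Rpl11, along the medial-lateral. The share of all genes called was also lower, 0.427 and 0.602%, against 0.811 and 1.4% in the main fit. DESeq2 was not run for these fits. The median slopes were then -0.031 and 0.048, with 61 of 73 negative and 61 of 73 positive. The counts also change with the sections kept. Without section 6, edgeR called 0 members on either coordinate (18 and 13 at an unadjusted p under 0.05). The median slopes were then -0.038 and 0.054. The share of all genes called fell too, to 0.419 and 0.610%. The dorsal-ventral count was 1 without section 3, 4 or 5, and 2 without section 7. In those fits 0.610, 0.488, 0.401 and 0.636% of all genes were called. The members called were not always the 4 genes above. Without section 3 none of the 4 was called and Rps28 was, and without section 7 the calls were Rpl3 and Rps28. Without section 4 the call was Rpl3, and without section 5 it was Rpl24. Without the lone hexagon of section 9 the count was 3 (0.785% of all genes), with Rpl35a no longer called. The medial-lateral count was 1 without section 3 or 7, and 3 without section 4, 5 or 8. The shares of all genes called were 0.741 and 0.270%, and 1.59, 0.924 and 1.58%. Without the shallowest library the counts were 6 and 10, while the share of all genes called was 0.907 and 2.07%. Within single sections, the summed members' slope was negative along the dorsal-ventral coordinate in 7 of 8 sections and 0.0022 in section 2. It was positive along the medial-lateral coordinate in 7 of 8 and -0.00034 in section 2. Section 1, with 4 hexagons, had the steepest dorsal-ventral value, -0.31.

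When each library was scaled to its own ribosomal protein total, which sets the summed members level, median slopes were 0.0038 along the dorsal-ventral and -0.00057 along the medial-lateral coordinate. No member was called on either by edgeR, with 7 and 3 members at an unadjusted p under 0.05. Of all genes, 2.23 and 2.44% were called with this scaling. DESeq2 was not run with this scaling. The log2 ratio of large to small subunit had medians of 0.60, 0.58 and 0.59 from the lowest to the highest dorsal-ventral group.

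When 5 terms were tested together (both coordinates, their squares and their product), 2.02% of all genes and 6 of 73 members were called. These were Rpl37 (edgeR adjusted p = 0.0162), Rpl24 (0.0178), Rpl11 (0.0263), Rps24 (0.0300), Rpl35a (0.0319) and Rpl3 (0.0391). Rps24, needed to process the 18S rRNA precursor, was called on neither single coordinate. It ran from 357 to 1519 CPM (median 522) at the low dorsal-ventral end and from 303 to 668 CPM (median 452) at the high end. Its highest value belongs to the shallowest library.

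Along the anterior-posterior coordinate, tested on counts summed in sections 1 to 8, the background was 0.244% and 0 of 73 members were called by edgeR. At an unadjusted p under 0.05 there were 5 members (6.85%), against 16.7% of all genes, and DESeq2 called 0. The summed share was 1.62% in section 1, 1.90% in section 2, 1.86% in section 3, 1.73% in section 4, 1.65% in section 5, 1.87% in section 6, 1.92% in section 7 and 2.04% in section 8. Among sections 1 to 8 it was thus highest in section 8 and low in sections 1 and 5, with no single order along the coordinate. The lone hexagon of section 9 had 2.11%. Sections 1 and 2 hold only library set A (first letter of the description label), section 3 only B and section 8 only H. Median shares were 2.05, 1.94 and 2.11% in sets F, G and H, and 1.67 to 1.84% in the others. Library set and this coordinate therefore cannot be told apart. Slopes were positive for 66 of 73 members, with a median of 0.074 against 0.0050 over all genes. The median was 0.091 in the large and 0.057 in the small subunit, a difference that was not tested. Without section 8 the overall median was 0.047. The 5 members were Rpl15 (0.17, SE 0.06), Rpl39 (0.19, SE 0.07), Rpl36a (0.18, SE 0.06), Rps3 (0.14, SE 0.06) and Rpl31 (0.14, SE 0.06). Their edgeR adjusted p-values lay between 0.154 and 0.276. Rpl39 had 69.6 CPM in section 1, between 79.8 and 102 CPM in sections 2 to 7, and 122 CPM in section 8. The log2 ratio of large to small subunit lay between 0.55 and 0.63 in the section sums.

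The spread of members between hexagons was small for their level. The biological coefficient of variation, edgeR's estimate of spread beyond counting error after section and both coordinates, had a median of 0.227 over the 73 members (range 0.180 to 0.666). It was 0.682 over all genes tested and 0.422 over 4051 other genes between the 10th and 90th percentile of the members' levels. These 4051 genes were not matched to members by level within that range. Each of the 73 members lay below the value fitted for genes of its level, as did 6545 of all 11469 genes. Of the 100 genes with the lowest values, 26 were members, and of the lowest 500, 53. Among members with a mean of 20 CPM or more the lowest values included those of Rpl9 (0.180), Rpl3 (0.184) and Rpl24 (0.185). The highest were those of Rpl22 (0.445), Rps27l (0.437), Rpl36 (0.420) and Rps12 (0.4003), which had mean levels of 51.3, 38.2, 42.4 and 53.0 CPM. The subunits had medians of 0.227 (large) and 0.228 (small).

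**Figure D5:**
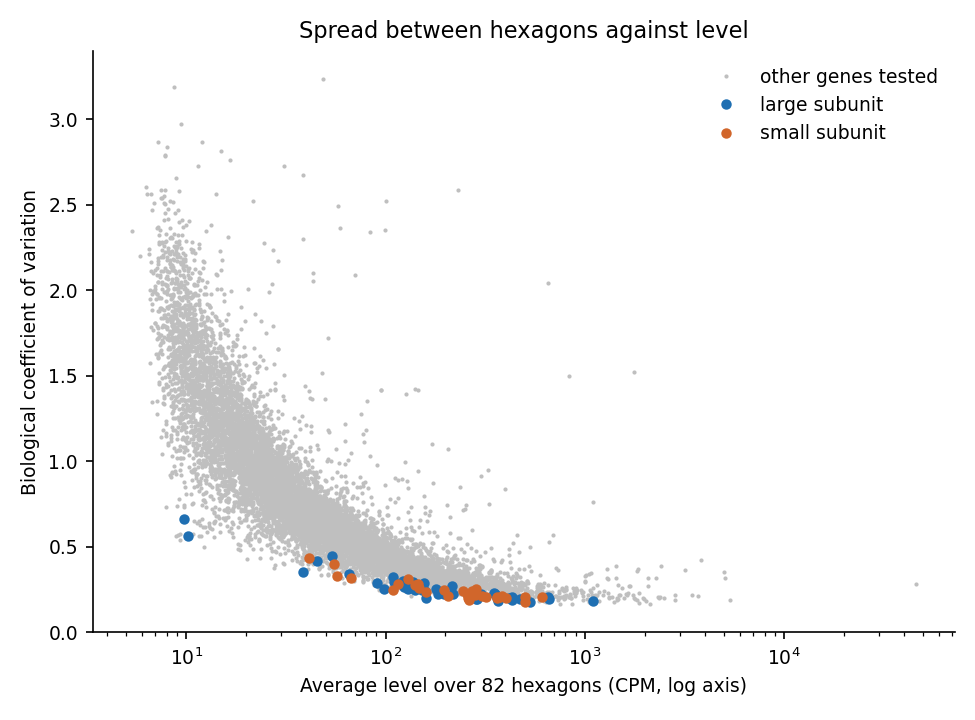
Biological coefficient of variation between hexagons against average level (CPM, log axis) for 11469 genes tested; grey points are other genes, blue the large and orange the small subunit. The members, with a median of 0.227, lie along the lower edge of the cloud.

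Members also varied together. In the 76 hexagons of sections 1 to 8 without low-depth libraries, the correlation of log2(CPM + 1) around section means had a median of 0.21 over 2628 member pairs, and 89.1% of pairs were positive. The median was 0.018 over pairs of all genes and 0.012 over pairs of other genes in the members' level range, not matched by level within it. Within the large subunit it was 0.20, within the small 0.24 and between subunits 0.21. These correlations are descriptions over hexagons that share sections, library sets and a common scaling. With the shallow libraries included, other genes in that range had a median of 0.23 and members 0.21, so the contrast is seen only without those libraries. Rpl37 had the highest mean correlation with the other members (0.35), followed by Rps23 (0.34) and Rpl11 (0.33). The lowest were those of the scarce Rpl13a (-0.07), then Rpl29 (0.03), Rpl10a (0.05) and Rps27l (0.05).

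Among 4640 genes with a mean of 50 CPM or more, those most like the summed members over 81 hexagons were Rpsa (r = 0.61), Cox4i1 (0.60), Cox6c (0.60), Pcdh11x (0.60) and Atpif1 (0.57). Rpsa encodes a small-subunit protein that the naming rule leaves out, and Cox4i1 and Cox6c encode subunits of cytochrome c oxidase. Without low-depth libraries the order changed: mt-Nd2 (0.67), mt-Nd5 (0.66), mt-Nd1 (0.61), mt-Co1 (0.59) and mt-Nd4 (0.59), all encoded by mitochondrial DNA, came first, and Rpsa had 0.57. The least alike over 81 hexagons were Stat3 (-0.47), Tenm3 (-0.46), Mkl2 (-0.46), Mcl1 (-0.43) and Klhl13 (-0.43).

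Mitochondrial transcripts and some cell-type markers also varied along the same coordinates, not all in the same direction. Mitochondrial transcripts made up a median of 1.68, 1.44 and 1.41% of counts from the lowest to the highest dorsal-ventral group. Their correlation with the log2 summed share was 0.62 over 82 hexagons and 0.63 over 77 without low-depth libraries. Of 12 SCN neuron markers, 10 had positive dorsal-ventral slopes (1 called, against 0.506% of all genes called higher). Of the same 12 markers, 0 had positive medial-lateral slopes (4 called lower, against 0.558% of all genes). The markers' summed level ran from 561 to 8316 CPM (median 3824) at the low and from 1348 to 21633 CPM (median 4850) at the high dorsal-ventral end. From low to high medial-lateral ends the median went from 6128 CPM (range 561 to 19021) to 3331 CPM (range 655 to 15415). The Pearson correlation of this level with the summed share, both on the log2 scale, was -0.46 over all 82 hexagons, the shallowest library included. Spearman rho was -0.39. Neither was computed without low-depth libraries. Astrocyte markers had positive medial-lateral slopes for 12 of 12 genes (1 called, against 0.837% of all genes called higher). Their summed level had medians of 5681 CPM (range 1651 to 8663) and 6804 CPM (range 3647 to 11354) at the ends. Along the dorsal-ventral coordinate 8 of 12 astrocyte slopes were positive (0 called). Oligodendrocyte markers had positive slopes for 11 of 11 tested genes along the medial-lateral and 10 of 11 along the dorsal-ventral coordinate (0 called). Their medial-lateral median slope was 0.23, against 0.13 for astrocyte markers, and their summed level went from a median of 1401 CPM (range 0 to 8535) to 2189 CPM (range 363 to 24095) at the ends. Of 3 tested meningeal fibroblast markers 2 were called lower along the medial-lateral coordinate, with summed medians of 11.2 CPM (range 0 to 727) and 6.14 CPM (range 0 to 63.3). Of 9 general neuron markers, 2 had positive dorsal-ventral slopes (1 called lower) and 6 had positive medial-lateral slopes (1 called higher). Their summed level had a Pearson correlation of -0.15 and a Spearman rho of 0.23 with the share over 82 hexagons. Erythrocyte markers had positive dorsal-ventral slopes for 5 of 5 genes (1 called). Microglia and endothelial markers had 0 called on both coordinates. The part of these in the members' slopes was not tested. Library sets, read from the first letter of the description label, had median shares between 1.67 and 2.11%. In sections 4, 5 and 6 the hexagons of highest medial-lateral coordinate belong to a different set from the rest. In section 6, set E lies at 1141 to 1276 (shares 1.59 to 1.92%) and set F at 1285 to 1507 (shares 1.65 to 2.45%). Library set and the medial-lateral coordinate are thus partly aligned within sections, and the part of each in the slopes was not tested. With library set as a factor, 2 members were called along the dorsal-ventral and 0 along the medial-lateral coordinate (13 at an unadjusted p under 0.05), where 0.645 and 0.113% of all genes were called, with median slopes of -0.044 and 0.059.

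Other genes of the translation machinery had few calls, as had all genes, and their median slopes differed between lists. None of 98 tested genes passed along the dorsal-ventral, medial-lateral or anterior-posterior coordinate by edgeR, with 6, 10 and 18 at an unadjusted p under 0.05. Over all genes 0.811, 1.4 and 0.244% were called, so few calls are to be looked for among 98. At an unadjusted p under 0.05 there were 8.43, 11.6 and 16.7% of all genes. DESeq2 called 0, 0 and 2 (Eif4e and Lsg1, chosen here after their values were seen), where 3.89% of all genes were called in the anterior-posterior test. The 8 tested ribosome components outside the naming rule had median slopes of -0.041 and 0.061 along the in-section coordinates (dorsal-ventral first), near the members' medians. Rpsa had -0.042 (SE 0.027) and 0.13 (SE 0.04), Rack1 -0.039 (SE 0.040) and 0.050 (SE 0.061), and Rplp0, of the stalk that recruits elongation factors, -0.024 (SE 0.036) and -0.014 (SE 0.053). The 8 elongation factors had medians of -0.00024 and 0.031. Eef1a1, which delivers aminoacyl-tRNA and whose message has a TOP motif, had a mean of 1821 CPM ± 316 (SD, n = 82) and slopes of -0.011 (SE 0.019) and -0.012 (SE 0.028). Eef2, the translocation factor, had 0.0028 (SE 0.0280) and -0.056 (SE 0.042), and Tpt1, another TOP message, -0.030 (SE 0.022) and 0.020 (SE 0.033). Medians were 0.00032 and 0.019 for 36 initiation factors, -0.029 and 0.019 for 16 genes of TOP regulation and other TOP messages, and 0.015 and 0.0070 for 30 ribosome biogenesis genes. Along the anterior-posterior coordinate the median was 0.056 for the 8 ribosome components, 0.074 for elongation factors and 0.065 for initiation factors. It was -0.043 for the TOP list and 0.018 for ribosome biogenesis, against 0.074 for the members and 0.0050 over all genes.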

How the data were processed

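The authors deposited whole-number counts per gene, without normalization, and RPKM. Per the submitters' processing notes, bcl2fastq 2, STAR and GRCm38 were used, and no role or order is stated. Which program counted the reads, with which strand setting and annotation, is not given in the sources used here. Deposited RPKM is the count over the file's gene length and the library total (relative deviation at most 5.3e-15), so it adds no independent evidence. Members were taken by symbol and gene type and joined by gene ID.

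A gene was tested if at least 10 libraries held at least 10 counts (11469 genes, 73 of them members). edgeR 4.0.16 (R 4.3.3, TMM, robust quasi-likelihood) fitted slopes on both coordinates beside a section factor, and a joint test of 5 terms. Section 9, with 1 hexagon, was left out of the section sums. Adjusted p is Benjamini-Hochberg over all genes, threshold 0.05. The standard error is the slope over the square root of F. CPM uses TMM library sizes. The slope fit was tested on simulated data. Replicate numbers follow accession order and pair nothing. Alternatives included DESeq2 1.42.0, other scalings, filters and left-out sections. Members and lists were chosen with earlier results of these data known. Named members are those called, the highest and lowest by RPKM, by coefficient of variation and by slope, the copies ending in l with their counterparts, and Rps6, Rpl41 and Rps27a; Rps25, Rps23 and Rpl10a and members at the unadjusted anterior-posterior threshold were named after their values were seen. Fixed translation genes and the 5 genes most and least like the sum were also named. Some members are not reported here by name, though they count in the totals. Positions are from GENCODE M21 on GRCm38.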

Additional observations from a re-analysis of the deposited data

Results flagged for a closer look

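Within the sections of 4 to 10 hexagons, the highest or lowest hexagon was compared with the others for the summed share, the subunit ratio and the members called, 30 groups in all. About 1 group in 20 is flagged by chance, and 2 were. In section 1, replicate 1 had 694 CPM of Rpl3, below the other 3 hexagons of the section at 1037 to 1064 CPM. In the same section, replicate 3 had 385 CPM of Rpl37, above the others at 212 to 239 CPM. Both values lie within the range of the gene over all 82 hexagons.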

How the results depend on the processing

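The members called along the dorsal-ventral coordinate (4) became 2 with DESeq2 size factors or library set as a factor, 6 with the DESeq2 test, library size alone or without low-depth libraries, 8 with no filter on low counts (7 lower, and Rpl3l higher on 2 counts), and 0 with 1 coordinate at a time or scaled by the ribosomal protein sum. Those along the medial-lateral coordinate (5) became 2 with DESeq2 size factors, 8 with the DESeq2 test, 9 with genes detected as a covariate, 0 with library set or scaled by the ribosomal protein sum, 1 with 1 coordinate at a time and 10 without the shallowest library. Those on 5 terms (6) became 10 with the DESeq2 test, 1 with library set and 0 scaled by the ribosomal protein sum. In these 5-term tests 3.37, 1.19 and 3.21% of all genes were called, against 2.02% in the main fit. Along the anterior-posterior coordinate 0 became 5 (among them Rpl11, Rpl35a, Rps3 and Rps4x) with hexagons in place of section sums. The share of all genes called there was 2.89%, against 0.244% with section sums. Leaving out 1 section at a time, or 1 hexagon of section 1, gave 0 to 4, 0 to 6, 0 to 6 and 0 members on the dorsal-ventral, medial-lateral, 5-term and anterior-posterior tests. The fewest came without section 6, and on 5 terms also without section 3. Without section 6, 0.419, 0.610 and 0.741% of all genes were called on the dorsal-ventral, medial-lateral and 5-term tests. On 5 terms it was 1.41% without section 3. The dorsal-ventral count was 1 without section 3, 4 or 5, the medial-lateral count 1 without section 3 or 7. The share of all genes called moved too. Along the dorsal-ventral coordinate it went from 0.811% to 3.73% with no filter, 1.33% with the DESeq2 test, 0.645% with library set and 0.427% with 1 coordinate at a time. Along the medial-lateral coordinate it went from 1.4% to 0.113% with library set, 0.602% with 1 coordinate at a time, 3.02% with the DESeq2 test and 2.07% without the shallowest library. The cause of these changes was not tested. Signs of the called slopes were kept in all 23 settings. The single-coordinate fit and the fit without the shallowest library were chosen after seeing the data. Among translation genes outside the members, 0 became 1 (Eif4g1), 1 (Eif4g2) and 2 on the dorsal-ventral, medial-lateral and 5-term tests scaled by the ribosomal protein sum. With that scaling 2.23, 2.44 and 3.21% of all genes were called. The count of translation genes became 1 (Rpl22l1) on the medial-lateral test without the shallowest library. On the anterior-posterior test it became 2 with DESeq2, 8 with hexagons and 1 with no filter. There 3.89, 2.89 and 0.496% of all genes were called. The summed share was 1.46% without the 3 members of most counts in each subunit and 3.70% from RPKM. No paired analysis was possible because replicate numbers are names in accession order. Precision of single members is limited in the shallow libraries.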
